A study of Homo sapiens with 16 samples.

Results

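CDH11, CD248 and other genes that mark stromal cells were followed across knockdowns in GIST-T1, a cell line of gastrointestinal stromal tumor (GIST). The set holds 10 genes: the surface proteins CDH11, CD248, THY1, PDGFRB and FAP, the secreted or matrix proteins ISLR, DCN and LUM, and the intracellular proteins S100A4 and VIM. The members were chosen by gene symbol, with earlier results of these data known, and 9 of the 10 had a transcript cluster (the array's unit for 1 gene) of their own, out of 14232 genes with such a cluster and 22011 clusters in all. S100A4 had no cluster listed under its symbol in the annotation used and was not analysed here. Each of the 9 genes was read by exactly 1 cluster, and none of the 9 shared its cluster with another gene.

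The study silenced genes picked in a screen for the response to imatinib, an inhibitor of KIT, and measured expression on 16 Affymetrix exon arrays. The knockdown group has 14 arrays, 1 for each siRNA target: 10 are zinc finger genes (ZNF708, ZNF665, ZNF528, ZNF431, ZNF429, ZNF254, ZNF100, ZNF91, ZNF85 and ZNF43) and 4 are not (RASSF8, IGFBP2, IGF2R and GTF21, the last spelled as in the labels). The siCON group has 2 arrays of cells given a nonsilencing siRNA, labelled 24 h and 72 h; the study's text gives a different time for the first. Both groups are the same line, transfected at 50 nM siRNA with no drug named in the array labels, and no source used here says how long after transfection the silenced cells were collected. Every knockdown is therefore a single array, the line is 1 tumor's cells, and the spread over the 14 arrays includes the effects of the different targets. Nothing in the labels says whether the 2 siCON arrays came from separate cultures, and p-values measure the spread between these arrays only. Levels are log2 expression estimates, so that a difference of 1 is a 2-fold change.

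CDH11 encodes cadherin-11, a calcium-dependent adhesion protein that joins mesenchymal cells to each other through catenins at the cytoplasmic side. CD248, also called endosialin, is a surface protein of fibroblasts and pericytes, and ISLR (meflin) is a leucine-rich repeat protein of mesenchymal stromal cells. THY1 is a lipid-anchored surface protein, PDGFRB is the receptor for platelet-derived growth factor B, and FAP is a surface protease of activated fibroblasts. DCN (decorin) and LUM (lumican) are small leucine-rich proteoglycans that bind collagen fibrils, and VIM (vimentin) forms the intermediate filaments of mesenchymal cells. GISTs arise from the lineage of the interstitial cells of Cajal, which are themselves mesenchymal, and a level of such a gene in this line is a level in the tumor cells.

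Of the 10 genes, 4 matched windows before a transcription start in RefSeq (GRCh38.p14), with 5 windows in all. The 100 bases before the first of 2 listed ISLR starts and before the VIM start are shown because these genes are the ones with a window that lay at opposite ends of the siCON comparison. The ISLR bases are chr15:74173610-74173709 and the VIM bases chr10:17228141-17228240, both on the plus strand. Capitals mark a GC box, GGGCGG or its reverse complement CCGCCC.
ISLR: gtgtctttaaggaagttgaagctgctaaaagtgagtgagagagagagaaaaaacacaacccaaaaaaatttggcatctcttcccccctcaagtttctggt
VIM: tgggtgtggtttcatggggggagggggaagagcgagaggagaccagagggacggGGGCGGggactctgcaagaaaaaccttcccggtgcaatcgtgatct
GC content was 41.0% in the ISLR stretch and 61.0% in the VIM stretch, beside a median of 60.0% over 35116 RefSeq windows of the same length. The stretch before the second ISLR start, not shown, had 65.0% GC and 0 GC boxes. The VIM stretch held 1 GC box and the ISLR stretch shown 0, and 31.3% of all windows held at least 1. Neither held TATAAA, which 4.99% of all windows held on either strand. These are matches of letters and carry no measurement of binding.

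Across all arrays the median level was 7.75 to 7.87 and the lower quartile 6.13 to 6.42. CDH11, ISLR, LUM and VIM lay far above these values, at 10.37 to 13.09, CD248, THY1 and DCN lay at 7.53 to 10.75, and PDGFRB lay near the array medians. FAP lay under the lower quartile of every array, at 3.59 to 4.14, so its level was not shown to be above background. Levels of different genes come from different probes and were compared here only with their own array's distribution. Targets were looked up by the symbol in the array label, so GTF21 was not read as GTF2I, the spelling in the study's gene list. Of the silenced genes, 5 had a cluster of their own under the symbol in the label. All 5 were below both siCON arrays on their own array, by 0.18 to 1.42 against the siCON mean. The 0.18 was that of ZNF528, which lay under the lower quartile, and ZNF43 at 9.77 on its own array was not the lowest of the 16, since another knockdown had 9.55. The 7 markers of GIST and interstitial cells of Cajal averaged 11.66 to 12.10 on the knockdown arrays and 11.70 to 11.81 on the siCON arrays.

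CDH11, CD248 and ISLR were the members with the largest differences between the knockdown and siCON arrays, each about 2-fold higher after knockdown. They entered the set because they were called higher in this contrast, so their values in it are given as a description with no test. CDH11 had a lowest level of 10.86, a median of 11.67 and a highest level of 11.98 on the 14 knockdown arrays, against 10.55 and 10.37 on the siCON arrays. All 14 knockdowns were above both siCON arrays, and the lowest 2, ZNF708 and RASSF8 (10.99), were nearest to them. CDH11 averaged 11.57 ± 0.32 after knockdown (SD, n = 14) and 10.46 in siCON, a difference of 1.11, or 2.16-fold. Against the siCON mean, single knockdowns differed by 0.40 (ZNF708) to 1.52 (IGF2R).

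CD248 had a lowest level of 8.31 (ZNF85), a median of 8.78 and a highest level of 9.31 (ZNF43) after knockdown, against 7.93 and 7.53 in siCON. The knockdown and siCON arrays did not overlap, and the 14 knockdowns formed a continuous range with no step between neighbours as wide as the gap of 0.39 between the siCON arrays. The mean was 8.79 ± 0.33 after knockdown (SD, n = 14) and 7.73 in siCON, a difference of 1.06, or 2.09-fold. ISLR had a lowest level of 12.12 (ZNF100), a median of 12.67 and a highest level of 13.09 (ZNF254) after knockdown, against 11.89 and 11.45 in siCON. Its groups did not overlap either, although the siCON arrays were themselves 0.43 apart. The mean was 12.66 ± 0.23 after knockdown (SD, n = 14) and 11.67 in siCON, a difference of 0.99, or 1.98-fold.

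THY1, which binds integrins on other cells, had a lowest level of 9.09 (RASSF8), a median of 9.88 and a highest level of 10.75 (IGFBP2) after knockdown, against 9.08 and 9.16 in siCON. The RASSF8 knockdown lay between the siCON arrays and the other 13 lay above both. The difference of means was 0.79 ± 0.28 (SE) and did not pass the threshold (limma, adjusted p = 0.237 over 22011 clusters). THY1 spread more widely across the knockdowns than the other members, with an SD of 0.42 that exceeded the SD of 92.0% of all clusters.

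The matrix proteoglycans DCN and LUM were also higher on most knockdown arrays, without passing the test. DCN had a lowest level of 8.63 (ZNF85), a median of 9.36 and a highest level of 10.04 (IGFBP2) after knockdown, against 8.81 and 8.47 in siCON. The ZNF85 knockdown lay between the siCON arrays and 13 lay above both, with a difference of means of 0.73 ± 0.25 (SE; limma, adjusted p = 0.230). LUM had a lowest level of 11.76 (ZNF85), a median of 12.12 and a highest level of 13.04 (IGFBP2), against 11.88 and 11.61 in siCON. Here 12 knockdowns lay above both siCON arrays, and ZNF85 and ZNF254 lay between them, with a difference of means of 0.42 ± 0.23 (SE; limma, adjusted p = 0.366). The IGFBP2 array stood above the next highest knockdown, ZNF528, by a wider step in LUM (13.04 and 12.50) than in DCN (10.04 and 9.93).

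PDGFRB, FAP and VIM showed small differences between the group means. PDGFRB had a lowest level of 7.32 (ZNF708), a median of 7.75 and a highest level of 7.97 (IGFBP2) after knockdown, against 7.58 and 7.67 in siCON. Of its knockdowns, 10 lay above both siCON arrays and 3 (ZNF100, ZNF429 and ZNF708) below both, and the difference of means was 0.08 ± 0.15 (SE; limma, adjusted p = 0.773). FAP had a lowest level of 3.74, a median of 3.90 and a highest level of 4.14 after knockdown, against 3.59 and 3.71 in siCON. All 14 knockdowns lay above both siCON arrays by a small margin, at 0.24 ± 0.10 (SE; limma, adjusted p = 0.299), in a range where the array was not shown to measure the gene. VIM had a lowest level of 10.71 (RASSF8), a median of 11.53 and a highest level of 11.75 (IGF2R), against 11.65 and 11.62 in siCON. Its knockdowns lay on either side of the siCON arrays, 5 above both and 9 below both, and the difference of means was −0.17 ± 0.20 (SE; limma, adjusted p = 0.632).

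**Figure D1:**
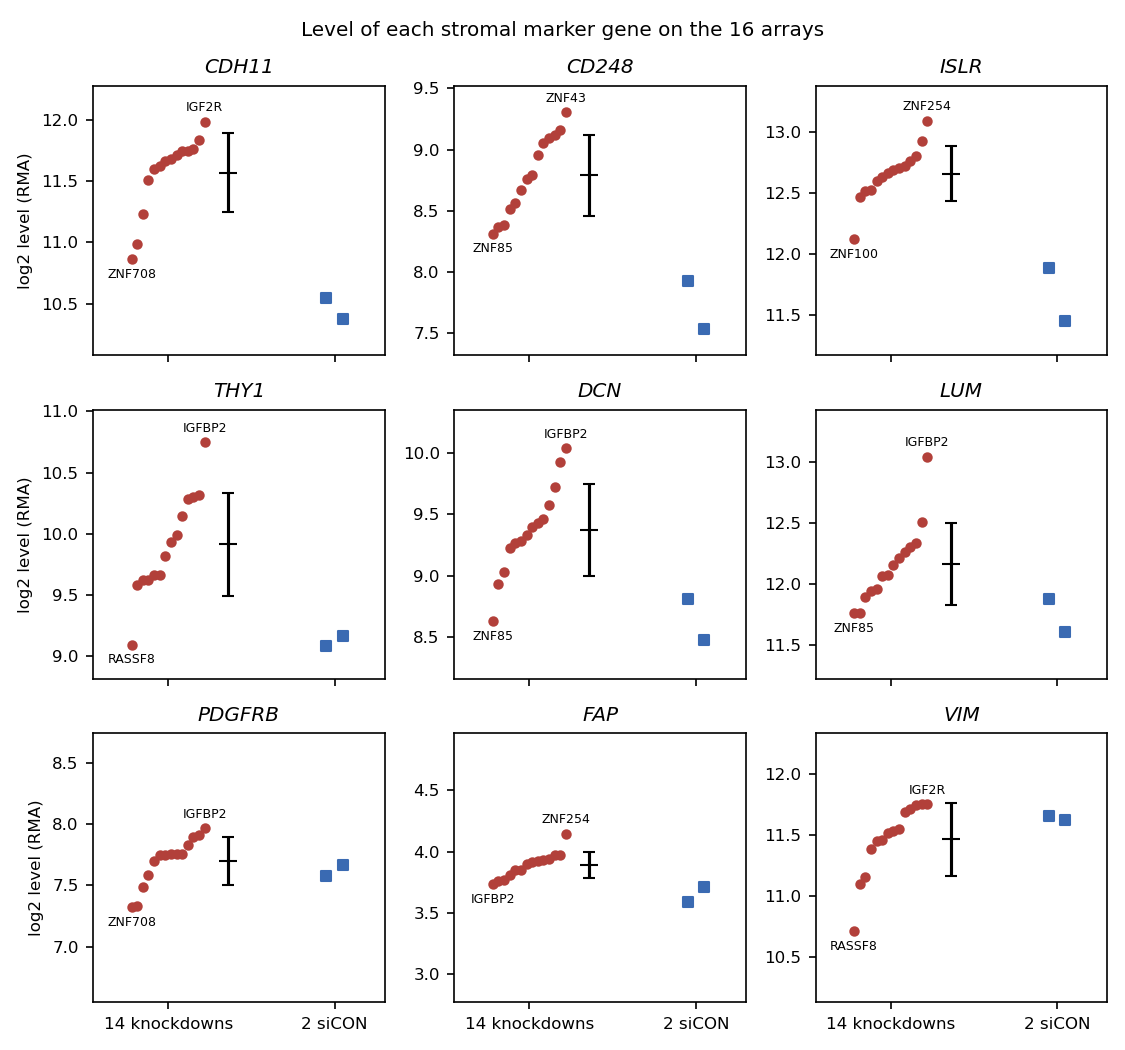
Log2 level of each of the 9 measured genes on the 14 knockdown arrays (red points, sorted by level, lowest and highest target named; black bar, mean ± SD) and the 2 siCON arrays (blue squares, 24 h left and 72 h right), all panels with the same height of scale. CDH11, CD248 and ISLR are above both siCON arrays on all 14 knockdown arrays, while PDGFRB and VIM straddle them.

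Over the 9 genes, 3 were called higher and 0 lower at an adjusted p under 0.05, the 3 that were picked on this contrast. Over all clusters 0.259% were called higher and 0.282% lower. The median difference of the 9 genes was 0.73, beside 0.07 over all clusters, and the 3 picked genes are part of that median. All 14 knockdowns were above both siCON arrays for 4 of the 9 genes (CDH11, CD248, ISLR and FAP), as they were for 4.81% of all clusters, and below both for 0 of the 9, as for 4.52% of all clusters. The choice of CDH11, CD248 and ISLR fixed most of these counts, FAP was not shown above background, and nothing is read from the counts. The calls rest on both siCON arrays: without the 24 h array or without the 72 h array, 0 of the 9 genes were called. The differences themselves stayed at 1.02 to 1.20 for CDH11, 0.86 to 1.26 for CD248 and 0.77 to 1.20 for ISLR when any single array was left out. The 72 h siCON array was lower than the 24 h array by 0.18 in CDH11, 0.39 in CD248, 0.43 in ISLR, 0.33 in DCN, 0.27 in LUM and 0.04 in VIM. It was higher by 0.08 in THY1, 0.09 in PDGFRB and 0.12 in FAP, and time after transfection cannot be told apart from other differences between the 2 arrays.

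The knockdowns differed in which of the genes were high. After silencing of IGFBP2, a carrier protein of insulin-like growth factors, the median difference of the 9 genes was 1.25 and 5 of the 9 differed by at least 1 from the siCON mean. This array was the highest of all 16 for THY1, DCN, LUM and PDGFRB. ZNF528 followed with a median of 0.92 and 4 genes at 1 or more. The lowest median was that of ZNF85, at 0.28, where CDH11 was 1.22 higher than siCON while DCN and LUM lay within 0.02 of it. After silencing of RASSF8, CD248 was 1.37 higher than siCON and VIM 0.92 lower, the lowest VIM level of the 16 arrays. Each of these is 1 array with no replicate.

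**Figure D2:**
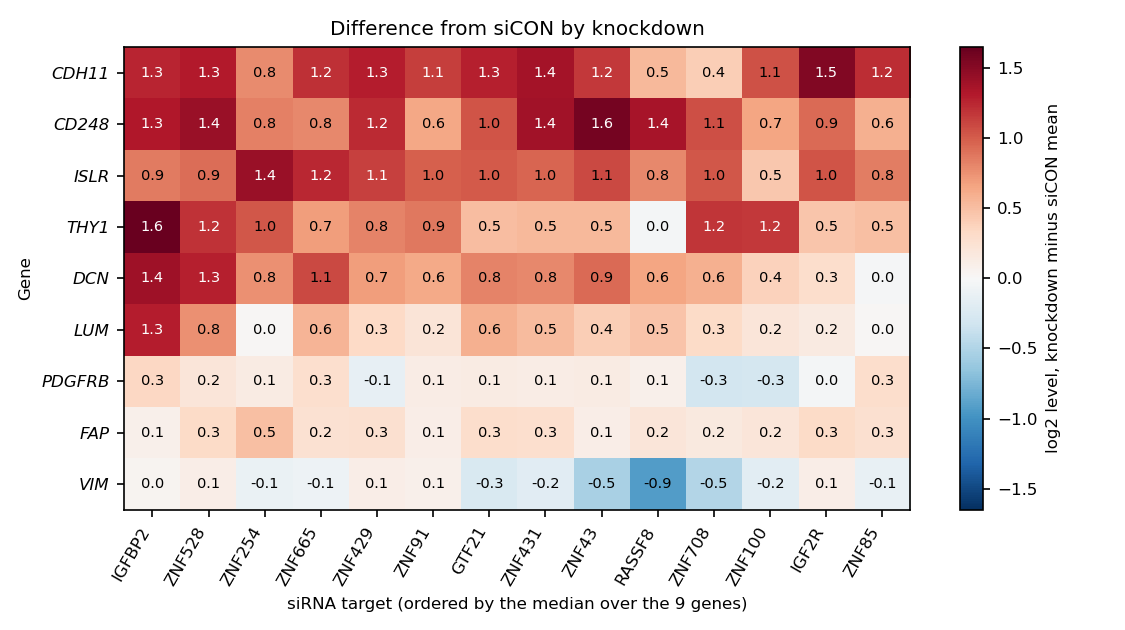
Log2 level of each gene (rows) in each knockdown (columns, from the highest to the lowest median over the 9 genes) minus the mean of the 2 siCON arrays. IGFBP2 and ZNF528 lead the order, and ZNF85 ends it with DCN and LUM near 0 beside CDH11 at 1.22.

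Zinc finger and other knockdowns were compared without the siCON arrays, a contrast that did not choose the members. Over all clusters 0% were called, and 0 of the 9 genes (limma, adjusted p under 0.05), while 18.3% of clusters and 0 of the 9 genes had an unadjusted p under 0.05. Without the IGFBP2 array 2700 of the 22011 clusters were called, and 0 of the 9 genes. With only 9 genes, that 0 does not set them apart from the other clusters. THY1 then differed by 0.54, just over the threshold (limma, adjusted p = 0.0515). CDH11 averaged 11.55 ± 0.29 in zinc finger knockdowns (SD, n = 10) and 11.61 ± 0.43 in other knockdowns (SD, n = 4). The difference was −0.06, with a 95% interval of −0.45 to 0.34 (limma, adjusted p = 0.891). Intervals here used limma's SE with the residual degrees of freedom alone, so they are slightly wider than its p-values imply. CD248 averaged 8.75 ± 0.37 in zinc finger knockdowns and 8.89 ± 0.21 in other knockdowns, a difference of −0.15 with an interval of −0.54 to 0.25 (limma, adjusted p = 0.686). ISLR averaged 12.68 ± 0.26 in zinc finger knockdowns and 12.60 ± 0.12 in other knockdowns, a difference of 0.08 with an interval of −0.20 to 0.37 (limma, adjusted p = 0.761). LUM had the largest difference of the 9, −0.29 with an interval of −0.67 to 0.08 (limma, adjusted p = 0.362), and it was −0.07 without the IGFBP2 array. Exact two-sided permutation tests over every choice of 4 of the 14 arrays gave p of 0.142 for LUM and 0.422 to 0.784 for the other 8 genes. The intervals leave room for differences of up to 0.70 in THY1, so the groups were not shown to be alike.

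Co-variation was read over the 14 knockdown arrays alone, which share their scaling but not their target, and is given as a description. Of the 36 pairs of the 9 genes, 5 had a Pearson r above 0.5, 0 had one below −0.5 and 20 lay within 0.2 of 0, with a median of 0.11. The 3 genes that differed most from siCON showed little co-variation with each other from knockdown to knockdown. The r was 0.02 for CDH11 and CD248, 0.00 for CDH11 and ISLR, and 0.06 for CD248 and ISLR. Without the ZNF708 and RASSF8 arrays, which lay farthest from the CDH11 median, the r of CDH11 and CD248 was 0.34.

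DCN and LUM varied most closely together, with r of 0.83 (Spearman's rho 0.85). The r was 0.74 without the ZNF85 and IGFBP2 arrays, which lay farthest from the DCN median, and 0.82 over the 10 zinc finger knockdowns alone. LUM was the 3rd most similar gene to DCN among genes with a cluster of their own, and DCN the second most similar to LUM. The genes are neighbours on chromosome 12, in the order EPYC, KERA, LUM, DCN and BTG1 among protein-coding genes. CD248 varied with both proteoglycans, with r of 0.59 for DCN (rho 0.59) and 0.58 for LUM (rho 0.63), and without the ZNF43 and ZNF85 arrays these were 0.47 and 0.59.

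CDH11 varied with VIM at r of 0.69 (rho 0.57), although CDH11 was higher and VIM, on average, slightly lower than siCON. This relation rested on ZNF708 and RASSF8, the knockdowns lowest in CDH11 and among the 3 lowest in VIM, and r was 0.27 without them. THY1 and VIM had r of 0.51 (rho 0.30), and 0.06 without the IGFBP2 and RASSF8 arrays. The SD of all clusters on an array, a measure of how stretched its values are, had r of 0.62 with THY1 and 0.44 with DCN, and −0.34 to 0.27 with the other 7 genes. Its part in these relations was read only through residuals: after removing it, r was 0.82 for DCN and LUM and 0.77 for CDH11 and VIM. For THY1 the r was lower after removing it, at 0.46 with VIM, and at 0.24 with DCN where it had been 0.44.

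**Figure D3:**
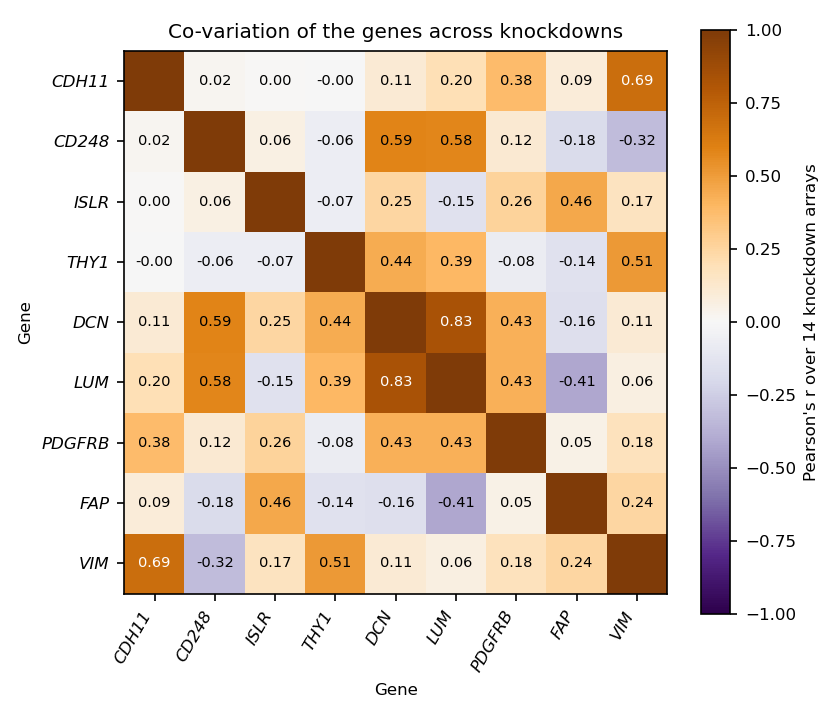
Pearson's r of each pair of the 9 genes over the 14 knockdown arrays. DCN with LUM (0.83) and CDH11 with VIM (0.69) are the highest, and CDH11, CD248 and ISLR are near 0 with each other.

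No cluster followed CDH11 or CD248 across the knockdowns beyond the multiple testing threshold. With the CDH11 level as covariate, 0% of the other 22010 clusters were called (limma, adjusted p under 0.05), and 506, or 2.30%, had an unadjusted p under 0.05, among them VIM with a slope of 0.65 ± 0.19 (SE; adjusted p = 1). With the CD248 level as covariate, 0% were called and 750, or 3.41%, had an unadjusted p under 0.05, among them DCN with a slope of 0.68 ± 0.24 and LUM with 0.59 ± 0.22 (SE; adjusted p = 1 for both). With 14 arrays this fit made no calls for any cluster, so the slopes are values and not findings.

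The genes most like CDH11 by r over the 14 knockdowns were POSTN at 0.80, TMEM19 at 0.79 and NEDD9 at 0.78. POSTN encodes periostin, a matricellular protein of fibroblasts, and NEDD9 a scaffold of focal adhesions. POSTN ranged from 7.24 to 8.71 over the knockdowns, against 9.64 and 10.64 in siCON, so it was 2.21 lower after knockdown while CDH11 was 1.11 higher. Among the knockdowns both genes were lowest on the ZNF708 and RASSF8 arrays, and r was 0.65 without them. NEDD9 likewise averaged 0.91 lower after knockdown, and its r was 0.51 without these arrays, where that of TMEM19 was 0.44. The genes most like CD248 were TBC1D15 at 0.87, RNF121 at 0.82 and OR5W2 at 0.77. OR5W2 lay at 3.99 to 4.71 on the knockdown arrays, under their lower quartiles, so its level was not shown to be above background. Those most like ISLR were FRMPD1 at 0.82, MEX3C at 0.76 and SKI at 0.75. Without the ZNF100 and ZNF254 arrays, the extremes of ISLR, r was 0.61 for FRMPD1, 0.31 for MEX3C and 0.13 for SKI. TBC1D15, a protein of vesicle traffic, kept an r of 0.81 without ZNF43 and ZNF85, and its own mean differed from siCON by only 0.05.

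**Figure D4:**
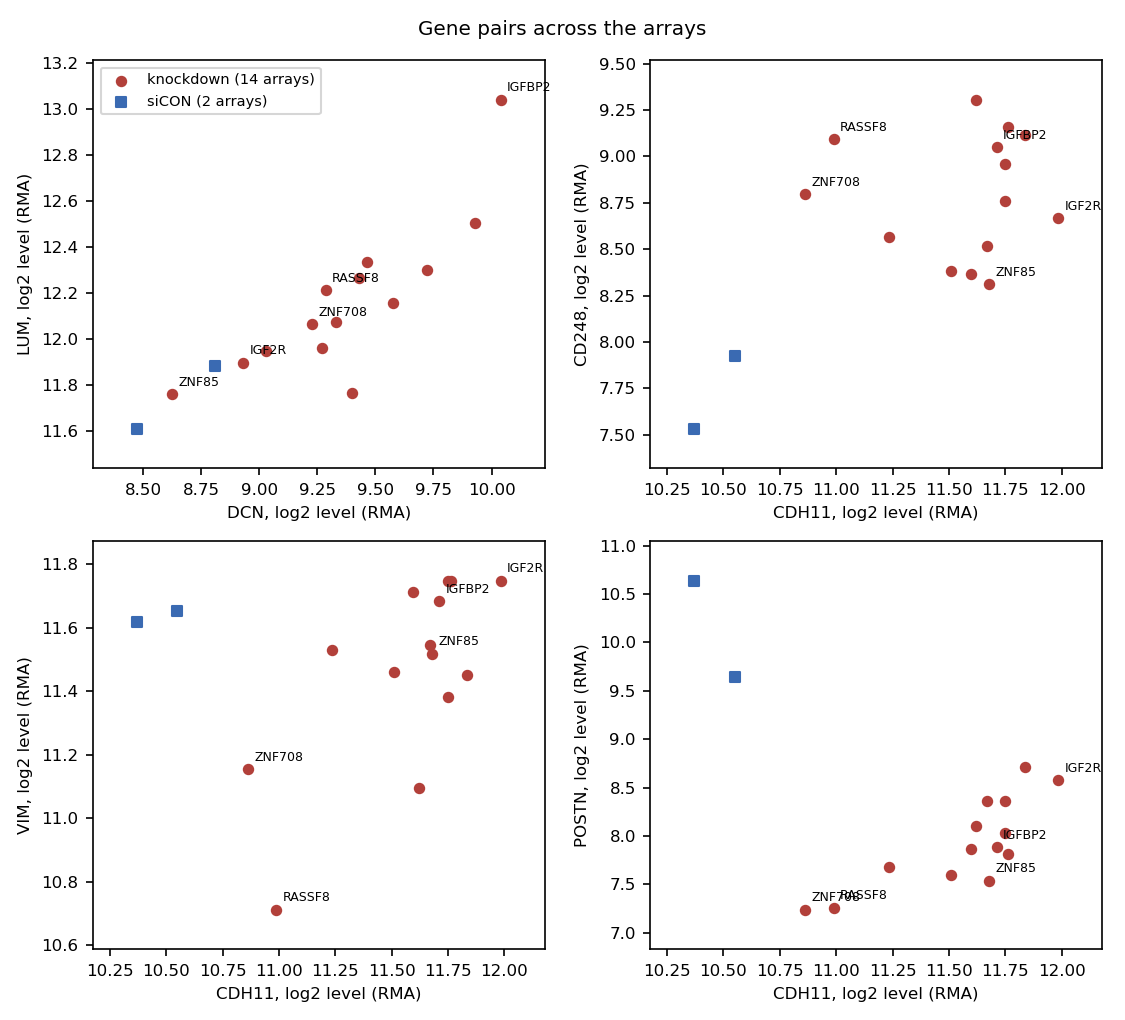
Log2 levels of gene pairs on the 14 knockdown arrays (red) and the 2 siCON arrays (blue squares): LUM against DCN, CD248 against CDH11, VIM against CDH11 and POSTN against CDH11, with the named arrays beside their points. DCN and LUM lie along 1 line with siCON at its low end, whereas for CDH11 and POSTN the siCON arrays lie off the trend, at low CDH11 and high POSTN.

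Related genes were read from lists that describe the families of the 9 genes and the cell types that share them. These lists were written with earlier results of these data known, so their calls against siCON are not independent support. Over all clusters, 0.259% were called higher and 0.282% lower, and the median difference was 0.07. All 14 knockdowns were above both siCON arrays for 4.81% of clusters and below both for 4.52%. Among cadherins and catenins, 25 of 28 listed genes were measured, 1 was called higher and 0 lower, and 15 lay under the lower quartile of every array. The call was CTNNB1, which encodes beta-catenin, the catenin that binds the tail of cadherins such as CDH11. CTNNB1 averaged 12.34 ± 0.13 after knockdown (SD, n = 14) against 11.70 and 11.63 in siCON, a difference of 0.68 (limma, adjusted p = 0.00835), with all 14 knockdowns above both. Its adjusted p was 0.166 without the 24 h siCON array and 0.505 without the 72 h array. CTNNA1, the alpha-catenin of the same complex, named after its values were seen, differed by −0.32 (limma, adjusted p = 0.346) and was below both siCON arrays in all 14 knockdowns. The r of CTNNB1 with CDH11 over the knockdowns was 0.22 (rho −0.04), and −0.15 without the ZNF708 and RASSF8 arrays. CDH3, the cadherin with the smallest p, differed by 0.25 (limma, adjusted p = 0.334).

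Among other stromal and fibroblast markers, 42 of 46 were measured, 1 was called higher and 0 lower, with a median difference of 0.25. All 14 knockdowns were above both siCON arrays for 6 of the 42 and below both for 0, beside 4.81% and 4.52% of all clusters. The call was MCAM, a surface glycoprotein of pericytes and of some tumors. MCAM averaged 8.21 ± 0.20 after knockdown (SD, n = 14) against 7.53 and 7.38 in siCON, a difference of 0.75 (limma, adjusted p = 0.0315), with all 14 knockdowns above both. Its adjusted p was 0.322 without the 24 h siCON array and 0.682 without the 72 h array. COL6A2, a chain of collagen VI, had the next smallest p, 0.39 higher (limma, adjusted p = 0.0789), also above both siCON arrays in all 14 knockdowns. Some genes of the list lay the other way, named here after their values were seen. ALCAM, an adhesion protein with the largest absolute difference of the list, differed by −1.04 (limma, adjusted p = 0.256) and was below both siCON arrays in 13 knockdowns. TNC, which encodes the matrix protein tenascin-C, differed by −0.92 (limma, adjusted p = 0.175) and was below both in 12.

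The families of the other genes gave 0 calls in either direction. The CD248 family and partners had 5 of 6 measured and a median of 0.21, with CD93 at 0.28 and CLEC14A at 0.21. The small leucine-rich proteoglycans with ISLR2 had 15 of 16 measured and a median of 0.24. PODN differed by 0.30 and EPYC, under the lower quartile of every array, by 0.25. Ligands and partners of the platelet-derived growth factor receptors had 10 of 12 measured and a median of 0.07, with SRC at 0.26 and PDGFRL at 0.55. Peptidases related to FAP had 9 of 10 measured and a median of 0.16, with PRCP at 0.43 and DPP4, the nearest relative of FAP, at 0.59. The list named Thy-1 receptors and integrin partners had 9 of 12 measured and a median of 0.22. It also holds other surface proteins, among them LY6E at 0.41. ITGB1, a beta chain shared by many integrins, was at 0.43.

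The S100 family, small calcium-binding proteins, had 13 of 19 measured, 0 called and a median of 0.19. S100A11 and S100A8 had the smallest p there, and both lay under the lower quartile of every array. Intermediate filaments had 17 of 19 measured, 0 called and a median of 0.10, with NEFH at 0.36 and KRT18 at −0.53 (limma, adjusted p = 0.230). KRT18 was below both siCON arrays in all 14 knockdowns. Its keratin partner KRT8, named after its values were seen, differed by 0.51 (limma, adjusted p = 0.254) and was above both in all 14. Of the 17 filament genes, 1 was thus above both in all 14 and 1 below, beside 4.81% and 4.52% of all clusters.

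Markers of other cell types were read in the same way. GIST and interstitial cell of Cajal markers had 7 of 7 measured, 0 called and a median of 0.17, with ETV1, a transcription factor of these cells, at 0.62 (limma, adjusted p = 0.109) and PDE3A at −0.28. Smooth muscle and pericyte markers had 9 of 11 measured and a median of 0.23, with MCAM again called and NOTCH3 at 0.48. Endothelial markers had 9 of 10 measured, 0 called and a median of 0.19, with FLT1 at 0.37 and CLDN5 at 0.27. Leukocyte markers had 10 of 12 measured, 0 called and a median of 0.21, with LYZ at 0.39 and CD3E at 0.35, both under the lower quartile of every array. The mean log2 level over the leukocyte markers was 5.95 to 6.39 on knockdown arrays and 5.90 to 5.91 on siCON arrays. Every knockdown thus lay above both siCON arrays, although 5 of the 10 genes lay under the lower quartile of every array. The same was found for the means over the 9 genes and over the other stromal and fibroblast markers. It was also found for the small leucine-rich proteoglycans, the Thy-1 list, and the smooth muscle and pericyte markers. The mean over endothelial markers was 6.10 to 6.64 on knockdown arrays and 6.16 to 6.19 on siCON arrays, and these overlapped. The means of the remaining lists overlapped as well. Medians of 0.16 to 0.25 were thus found in most lists, those of dim genes included, and their part in the stromal differences was not tested.

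Epithelial markers had 10 of 11 measured, 0 called higher, 1 called lower and a median of 0.13, with 7 of the 10 above 0. The keratins given above, KRT18 at −0.53 and KRT8 at 0.51, are also in this list. The call was EPCAM, an epithelial adhesion protein, at 4.17 ± 0.09 after knockdown (SD, n = 14) against 4.39 and 5.50 in siCON (difference −0.78; limma, adjusted p = 0.0421). It lay under the lower quartile of every array, and the difference was −0.23 without the 72 h siCON array (limma, adjusted p = 0.682).

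**Figure D5:**
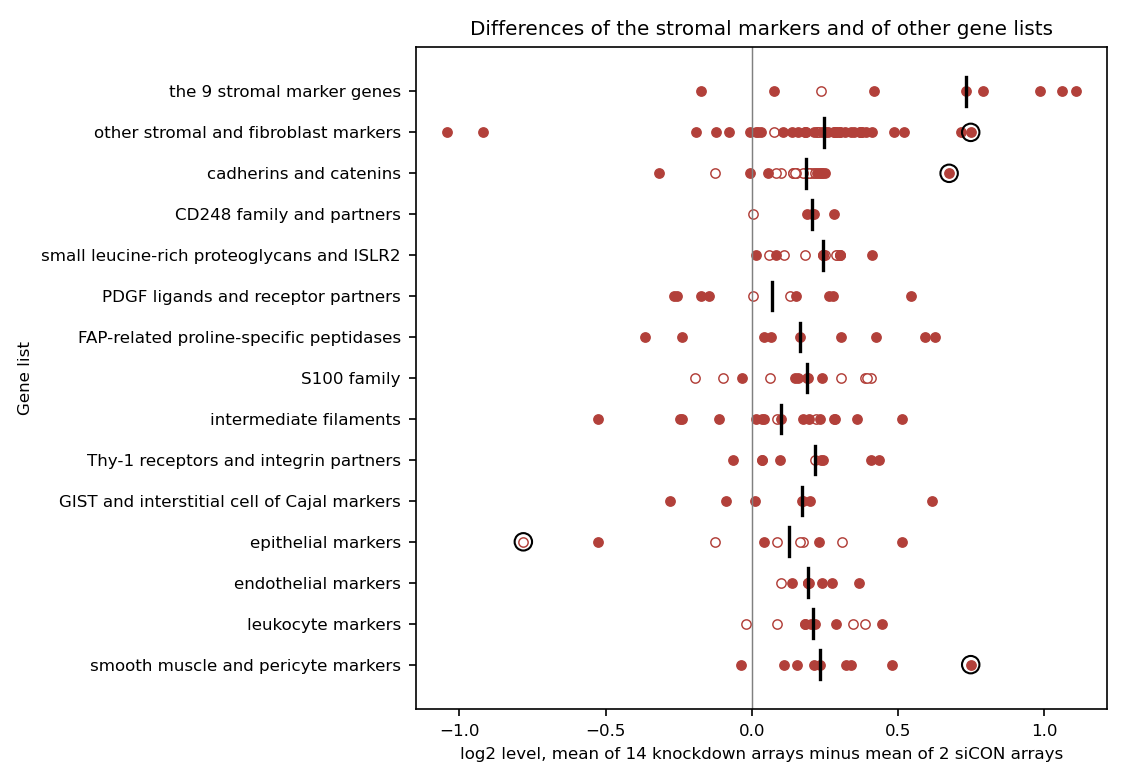
Difference in log2 level between the mean of the 14 knockdown arrays and the mean of the 2 siCON arrays for each gene (points) of the 9 stromal marker genes and of 14 other lists, with the median of each list as a black bar. Open points lie under the lower quartile of every array, and black rings mark genes called in the other lists: MCAM (in 2 lists), CTNNB1 and EPCAM. CDH11, CD248 and ISLR lie farthest right, at 0.99 to 1.11.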

How the data were processed

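RNA of each culture was hybridised to an Affymetrix Human Exon 1.0 ST array. The authors ran RMA in oligo on core probes and deposited the log2 estimates at gene level (build hg19 per the submitters' notes, with no versions). The deposited values were used unchanged, and every column was mapped to a sample. Of the 22011 clusters, 14432 carried 1 symbol, 2408 several and 5171 none, by the platform annotation, and a gene was read by its brightest cluster with 1 symbol. Groups were compared with limma 3.58.1 in R 4.3.3 (lmFit, eBayes), p-values adjusted over all clusters by Benjamini-Hochberg and called under 0.05, after a check on simulated data. Precision is limited by the number of arrays, above all the 2 siCON arrays. The members and gene lists were chosen with earlier results of these data known. Named are all members, the 3 genes most like each of CDH11, CD248 and ISLR, and in each list the called genes and the 2 with the smallest p. Alternatives were median centring, quantile normalization, a filter on dim clusters, limma trend, the mean of a gene's clusters, the methods' t-test, array SD as a covariate, rank correlation and left-out arrays. Tables were handled in Python 3.11.15 (pandas 2.3.3, numpy 2.4.6), correlations in scipy 1.17.1 and plots in matplotlib 3.10.9. Promoter windows were RefSeq's (GRCh38.p14).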

Additional observations from a re-analysis of the deposited data

How the results depend on the processing

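Without either siCON array the 9 genes gave 0 calls against siCON, so the count of 3 needs both controls; over single arrays left out it ranged from 0 to 3. The methods' t-test after Benjamini-Hochberg adjustment called 1 of the 9 genes (ISLR) and 64 clusters, against 119 in limma, and 5 clusters and 0 of the 9 genes by Bonferroni. Leaving out single arrays, the count of clusters was 2 (without the 72 h siCON array) to 140, with 13 without the 24 h siCON array, 77 without ZNF85 and 78 without ZNF528. CDH11, CD248 and ISLR were picked on this contrast, so whether their calls held under other settings is no evidence for or against them. The other lists were also chosen with earlier results known, so the same limit may hold for their calls. In those lists MCAM had an adjusted p of 0.0509 in the methods' t-test, and the difference of EPCAM ranged from −1.34 to −0.23 over single arrays left out.

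For zinc finger against other knockdowns, clusters called numbered 0 to 2700 over single arrays left out, with 2700 without IGFBP2 and 1 without RASSF8, and 2 without IGF2R and RASSF8; members called stayed at 0. The cause was not tested. Differences without single arrays ranged from −0.26 to 0.069 for CDH11, −0.013 to 0.54 for THY1, −0.24 to 0.13 for DCN, −0.023 to 0.056 for FAP and −0.11 to 0.24 for VIM. Without IGF2R and RASSF8, THY1 was −0.21 and VIM −0.036. These changes of direction concern differences that no test called. Median centring moved the median of all clusters against siCON to 0.02. No paired analysis was possible because the labels give the arrays no shared replicate numbers.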

Other observations

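Of the class II antigen presentation genes, 2 were read against CD248 across the knockdowns. The r over the 14 knockdown arrays was −0.73 for CD248 and CD74, the invariant chain of class II molecules, and −0.74 for CD248 and HLA-DPB1. Without the ZNF43 and ZNF85 arrays these were −0.55 and −0.62. The genes were chosen after their values were seen, and neither passed the test across all clusters with CD248 as covariate, where 0 clusters were called by limma and 750 had an unadjusted p under 0.05.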
